A study of Mus musculus with 7 samples.

Results

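Transcripts of 10 C-type lectin genes were followed in macrophages of mouse lung tumors, with and without a deletion of Dicer1 in myeloid cells. The 10 genes were taken by name from the 24084 genes listed in at least 1 of the 7 libraries: 6 genes of the CD209 family (Cd209a, Cd209b, Cd209d, Cd209e, Cd209f and Cd209g), the galactose-type lectins Clec10a and Mgl2, and the Dectins Clec4n (Dectin-2) and Clec7a (Dectin-1). The cells were tumor-associated macrophages, sorted by flow cytometry as F4/80+ cells from established tumors of Lewis lung carcinoma (LLC), a mouse lung cancer line that had been injected under the skin. In 3 libraries the mice were LysM-Cre; Dicer–/– (D–/–), called Dicer1-deleted here, with floxed Dicer1 on both chromosomes. The 4 control libraries came from LysM-Cre; Dicer+/+ (D+/+) mice. All mice of both groups carried LysM-Cre on both chromosomes, so the controls share the Cre insertion. LysM-Cre is driven by the lysozyme M locus, which is active in macrophages, in many monocytes and in neutrophils, and the deletion is thus not restricted to the sorted cells. The labels give no age, sex or strain background. They also leave unsaid whether every library stands for its own mouse, and the p-values therefore reflect the spread among libraries, which may be technical.

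C-type lectins are receptors whose carbohydrate recognition domain, in most members, binds sugars with the help of calcium. The mouse CD209 genes are relatives of human DC-SIGN, a receptor for mannose- and fucose-rich glycans. In the mouse, Cd209a is known from monocyte-derived dendritic cells and from macrophages of several tissues, and Cd209b encodes SIGNR1, the receptor of marginal zone macrophages in the spleen. Clec10a (MGL1, CD301a) and Mgl2 (CD301b) encode lectins for galactose or N-acetylgalactosamine, and both are widely used as markers of macrophages stimulated with interleukin 4 and of some dendritic cells. Clec7a binds fungal beta-glucan and signals through the kinase Syk by its own tail, whereas Clec4n binds mannans and needs the adaptor chain encoded by Fcer1g.

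The 7 libraries held 43 to 51.2 M uniquely placed reads, and levels are given in CPM (counts divided by the library total in M reads), scaled by TMM factors. Dicer1, the gene for the ribonuclease that makes mature microRNAs, stood at 7.85, 6.86 and 7.86 CPM in the Dicer1-deleted libraries, against 15.7, 15.8, 18.6 and 17.1 CPM in the control libraries, and the groups did not overlap. Its log2 fold change, Dicer1-deleted minus control, was -1.16 ± 0.23 (SE), with an adjusted p over all 16226 tested genes of 0.150 in edgeR and of 4.96e-05 in DESeq2. Dicer1 reads thus remained in the Dicer1-deleted libraries, and counts per gene do not show how complete the deletion was. Dicer1-deleted replicate 2 stood apart from the rest. Its mean root mean square log2 difference to the other libraries was 0.904, against 0.630 and 0.649 for the other Dicer1-deleted libraries and 0.641 to 0.677 for the control libraries, and the fewest genes were listed in it (18888, against 19399 to 20167). Adgre1, which encodes F4/80, the antigen of the sort, was present in every library, at 1072, 233 and 678 CPM in the Dicer1-deleted libraries, against 418, 527, 798 and 527 CPM in the control libraries. Csf1r, which encodes the receptor for macrophage colony-stimulating factor, was likewise present in every library, at 493.5 to 789 CPM in the Dicer1-deleted libraries, against 553 to 809 CPM in the control libraries.

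The question was how the lectin genes of these macrophages differed with the deletion of Dicer1 in myeloid cells. In group means, the CD209 genes and the galactose-type lectins were lower in Dicer1-deleted than in control libraries, whereas the Dectins were not. For Cd209f, Cd209g, Clec10a and Mgl2 the difference lay in 3 of the 4 control libraries. For Cd209a it lay mostly in control replicates 1 and 3, as control replicate 2 (4.35 CPM) was just above the highest Dicer1-deleted library (3.74 CPM). For all of these genes, control replicate 4 was within or below the range of the Dicer1-deleted libraries. The groups overlapped for all 10 genes. Over all tested genes, the groups did not overlap for 5.44% with the Dicer1-deleted libraries lower and for 3.86% with them higher.

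**Figure D1:**
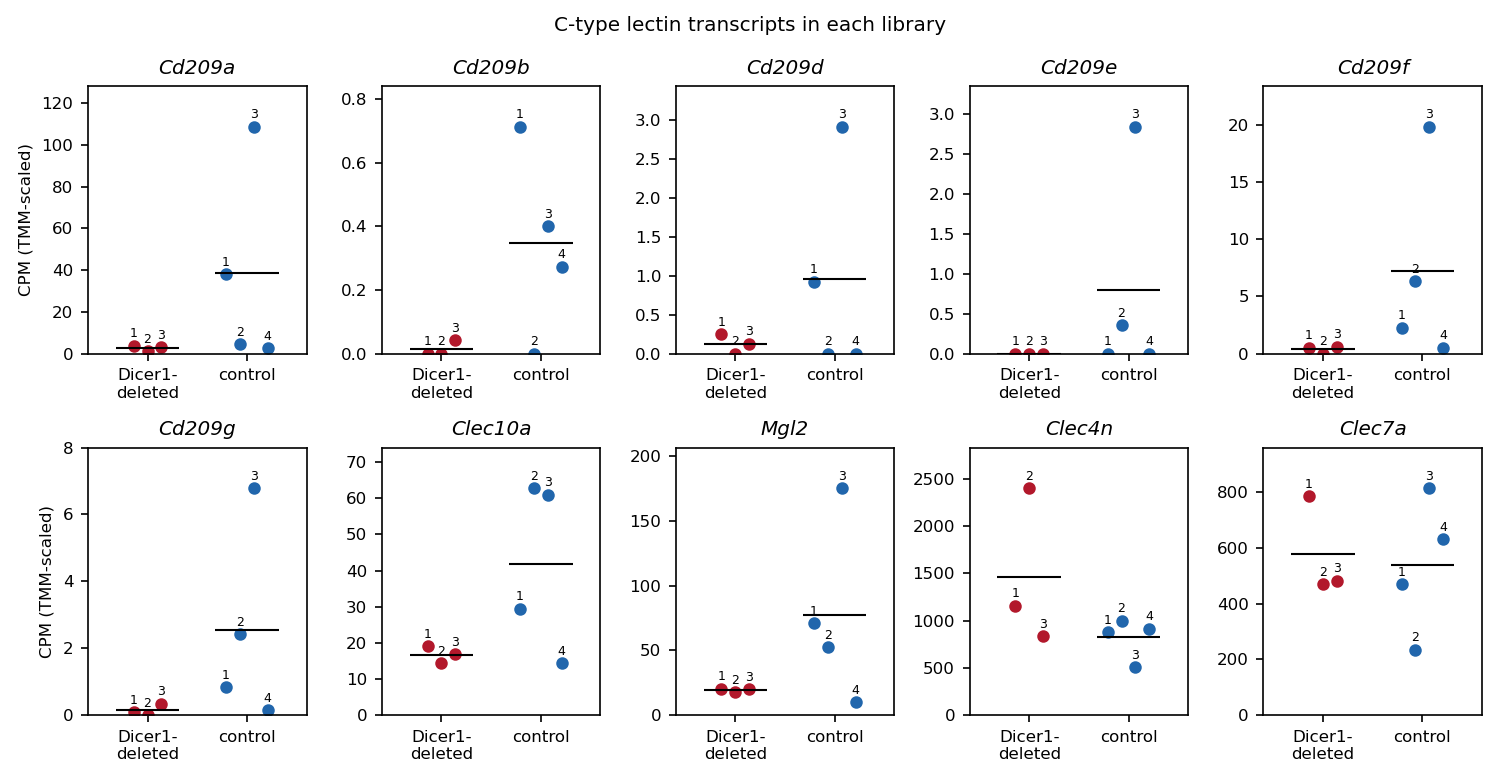
Each panel shows 1 lectin gene, with its level in TMM-scaled CPM on a linear axis that starts at 0 and differs between panels. Points are libraries, numbered by replicate (3 Dicer1-deleted, 4 control), and bars are group means. In the CD209 and galactose-type panels the Dicer1-deleted points lie close together on this axis, whereas the control points are spread out with replicate 3 highest except for Cd209b (replicate 1) and Clec10a (replicate 2). In the CD209 panels the Dicer1-deleted points lie near 0, where closeness need not mean a small spread relative to the mean. Their SD was 0.178 CPM on a mean of 0.142 CPM for Cd209g, but 1.43 CPM on 2.64 CPM for Cd209a.

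Of the 10 genes, 9 passed the filter on low counts and were tested, and Cd209e did not pass. A negative log2 fold change was found for 7 of the 9, against 47.4% of all tested genes. None of the 9 passed an adjusted p of 0.05 in edgeR's quasi-likelihood test, where 3 of 16226 genes (0.0185%) were called lower and 0.00616% higher. At an unadjusted p under 0.05, 6 of the 9 were lower and 0 were higher, against 4.14% lower and 3.88% higher over all tested genes. The 6 became 0 of 9 in limma-voom and 3 of 9 with the L code of the library titles as a covariate (Cd209f, Cd209g and Clec10a), and 2 to 5 with 1 library left out. On read pairs it was 5 of 7, as Cd209b and Cd209d did not pass the filter. One of the 6, Cd209b, passed the main filter only through its reads in control replicates 1, 3 and 4 (34, 22 and 12). A lower value was thus the only outcome open to it. DESeq2 called 1 of the 9, Cd209g, where it called 1.57% of all genes lower and 0.925% higher. These counts describe genes that were picked with earlier results of the same libraries in view, and 1 of them had dropped out at the filter.

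Per length, by the RPKM values that the authors deposited, Cd209a was the most abundant CD209 transcript in every Dicer1-deleted library and in 3 of the 4 control libraries. Its level was 3.74, 1.02 and 3.16 CPM in the Dicer1-deleted libraries, against 38.1, 4.35, 109 and 2.51 CPM in the control libraries. Control replicates 1 and 3 were far above all other libraries, control replicate 2 was just above the highest Dicer1-deleted library, and control replicate 4 was below 2 of the 3 Dicer1-deleted libraries. The means were 2.64 ± 1.43 CPM in Dicer1-deleted libraries, against 38.4 ± 49.6 CPM in control libraries (SD, n = 3 and 4), so that the spread among the controls was larger than their mean. The log2 fold change was -3.86 ± 1.26 (SE), with an unadjusted p of 0.0128 and an adjusted p of 0.381 in edgeR, and an adjusted p of 0.0824 in DESeq2. In bulk RNA of sorted cells, fewer cells of a kind that expresses a gene and less of its RNA per cell cannot be told apart.

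Cd209f and Cd209g form a closely related pair, and their transcripts went together from library to library. Cd209f is on the minus strand of chromosome 8 (chr8:4102787-4105835, GRCm38), and Cd209g lies close by on the plus strand (chr8:4134098-4137707). The longest annotated coding sequences of the pair were 89.2% identical over 582 aligned bases, whereas Cd209a, Cd209b, Cd209d and Cd209e were 69.3 to 78.6% identical to one another. Gaps are left out of this measure, by which Cd209a and Mgl2 were 70.3% identical. Exon 6 of both genes, a coding exon of 152 bases at chr8:4104102-4104253 on the minus strand for Cd209f and at chr8:4136228-4136379 on the plus strand for Cd209g, was the same in every base. It is shown because a read pair that falls inside it cannot be assigned to either gene. The capitals mark the bases that are identical.
Cd209f and Cd209g exon 6: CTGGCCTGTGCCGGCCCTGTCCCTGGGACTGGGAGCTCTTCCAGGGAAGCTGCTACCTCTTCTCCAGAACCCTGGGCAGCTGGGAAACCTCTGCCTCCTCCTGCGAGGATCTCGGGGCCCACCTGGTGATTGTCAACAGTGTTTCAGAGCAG

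The likeness was also seen in the 250 bases before the RefSeq starts (GRCm38.p6), where a run of 154 bases was identical. These windows are placed by RefSeq. The GENCODE gene models begin farther upstream, so that the Cd209g window lies inside its GENCODE gene and the Cd209f window overlaps its own. It ended directly at the start of Cd209f (chr8:4105765-4106014, minus strand) and 14 bases before the start of Cd209g (chr8:4134486-4134735, plus strand). Both promoters are shown, from RefSeq, because they share most of the window. Whether this sequence bears on the levels of the pair was not tested. The capitals mark the identical run.
Cd209f promoter: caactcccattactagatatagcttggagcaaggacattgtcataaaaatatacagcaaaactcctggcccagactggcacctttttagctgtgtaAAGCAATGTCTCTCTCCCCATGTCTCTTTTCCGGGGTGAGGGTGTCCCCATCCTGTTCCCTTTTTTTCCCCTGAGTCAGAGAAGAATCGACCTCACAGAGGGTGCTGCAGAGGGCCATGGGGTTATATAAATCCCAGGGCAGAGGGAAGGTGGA
Cd209g promoter: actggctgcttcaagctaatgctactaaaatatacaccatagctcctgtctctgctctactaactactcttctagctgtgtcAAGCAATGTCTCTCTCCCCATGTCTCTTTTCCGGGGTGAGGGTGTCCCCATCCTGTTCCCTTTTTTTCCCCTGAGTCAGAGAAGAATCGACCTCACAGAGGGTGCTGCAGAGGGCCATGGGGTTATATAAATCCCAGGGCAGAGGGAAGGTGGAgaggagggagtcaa

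Cd209f had 0.498, 0 and 0.598 CPM in the Dicer1-deleted libraries, against 2.26, 6.33, 19.9 and 0.501 CPM in the control libraries. Cd209g had 0.0830, 0 and 0.342 CPM in the Dicer1-deleted libraries, against 0.839, 2.42, 6.78 and 0.137 CPM in the control libraries. For both genes control replicates 1, 2 and 3 were above every Dicer1-deleted library, with replicate 3 highest, and control replicate 4 was within the Dicer1-deleted range. Cd209f averaged 0.365 ± 0.320 CPM in Dicer1-deleted libraries, against 7.24 ± 8.77 CPM in controls, and its log2 fold change was -4.28 ± 1.35 (SE), with an unadjusted p of 0.0107 and an adjusted p of 0.361 in edgeR and of 0.14 in DESeq2. Cd209g averaged 0.142 ± 0.178 CPM in Dicer1-deleted libraries, against 2.55 ± 2.98 CPM in controls, and its log2 fold change was -4.12 ± 1.39 (SE). For Cd209g the unadjusted p was 0.0151 and the adjusted p 0.412 in edgeR, against an adjusted p of 0.0252 in DESeq2. DESeq2 no longer called Cd209g when Dicer1-deleted replicate 1 (adjusted p 0.146) or 2 (0.0544), or control replicate 2 (0.0783) or 3 (0.335), was left out.

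These reads were few, and part of them could have come from either gene. Cd209g rested on 4, 0 and 16 unique reads in the Dicer1-deleted libraries and on 40, 108, 372 and 6 in the control libraries, with both mates of a pair counted. Of the 50-base words in the annotated transcripts, 29.8% of those of Cd209f were also in Cd209g, and 16.6% of those of Cd209g were also in Cd209f. The authors' files assigned a fractional share of multiply placed reads to each gene, and this share was 4.34 to 6.76% of the reads of Cd209f and Cd209g. It was nearly equal for the pair in each library, as a split in proportion to unique reads would give. The equal shares are thus no check on which gene these reads came from. The ratio of unique Cd209f to Cd209g reads was 6 and 1.75 in Dicer1-deleted replicates 1 and 3 and 2.70, 2.61, 2.93 and 3.67 in the control libraries. Neither gene had a read in Dicer1-deleted replicate 2.

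The other 3 CD209 genes were rare. Cd209b had 0, 0 and 0.0427 CPM in the Dicer1-deleted libraries, against 0.713, 0, 0.401 and 0.273 CPM in the control libraries, which rests on 2 unique reads in Dicer1-deleted replicate 3 and on 34, 22 and 12 in control replicates 1, 3 and 4. Control replicate 2 had no read, as had 2 of the Dicer1-deleted libraries, and the other 3 control libraries were above all Dicer1-deleted ones. Its log2 fold change was -4.33 ± 1.64 (SE), with an unadjusted p of 0.0260 and an adjusted p of 0.495 in edgeR and of 0.242 in DESeq2, and a fold fitted on such counts depends on the prior count and gives no bound.

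Cd209d, which encodes SIGNR3, had 0.249, 0 and 0.128 CPM in the Dicer1-deleted libraries, against 0.922, 0, 2.92 and 0 CPM in the control libraries. Control replicates 3 and 1 were highest, and the other 2 control libraries were at 0, below 2 of the 3 Dicer1-deleted libraries. Its log2 fold change of -2.89 ± 1.84 (SE) had an unadjusted p of 0.150 and an adjusted p of 0.859 in edgeR. Cd209e had no read in any Dicer1-deleted library and 0, 0.359, 2.84 and 0 CPM in the control libraries, so it was found in control replicates 2 and 3 only and was not tested. A count of 0 read pairs allowed a level of up to 0.125, 0.152 and 0.128 CPM in the Dicer1-deleted libraries and of up to 0.109 to 0.137 CPM in the control libraries, for counting error only.

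Summed over the 6 genes, the CD209 level was 4.57, 1.02 and 4.27 CPM in the Dicer1-deleted libraries, against 42.8, 13.5, 141 and 3.42 CPM in the control libraries. The sum holds uniquely placed reads only, so reads that match more than 1 gene are left out of it. It also leaves out Cd209c, which was not among the genes followed and was not tested. Cd209c had 0, 0.0508 and 0.171 CPM in the Dicer1-deleted libraries, against 0.629, 0.135, 2.63 and 0.0456 CPM in the control libraries. Control replicates 1 to 3 were above every Dicer1-deleted library, and control replicate 4 was between Dicer1-deleted replicate 2 and the other two. The log2 ratio of the group means was -3.94. Leaving out control replicate 3, which alone held most of the CD209 reads of the series, gave -2.60, and leaving out control replicate 4 gave -4.33.

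The make-up of the CD209 reads differed among the control libraries more than the sum alone shows. Cd209a gave 81.8, 100 and 74.0% of the unique CD209 reads in the Dicer1-deleted libraries, against 88.9, 32.3, 76.8 and 73.3% in the control libraries. Control replicate 2 was the exception, with Cd209f and Cd209g together at 65.0% of its reads. The 95% binomial intervals on read pairs (Clopper-Pearson) were 27.1 to 37.9% for the Cd209a share of control replicate 2 and 86.8 to 90.8, 75.4 to 78.1 and 61.9 to 82.9% for control replicates 1, 3 and 4. In the Dicer1-deleted libraries they were 73.3 to 88.5, 83.2 to 100 and 64.3 to 82.3%, so the share in control replicate 2 was below all of the others. These intervals cover counting error only, as reads amplified by PCR without molecular identifiers are not independent molecules.

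**Figure D2:**
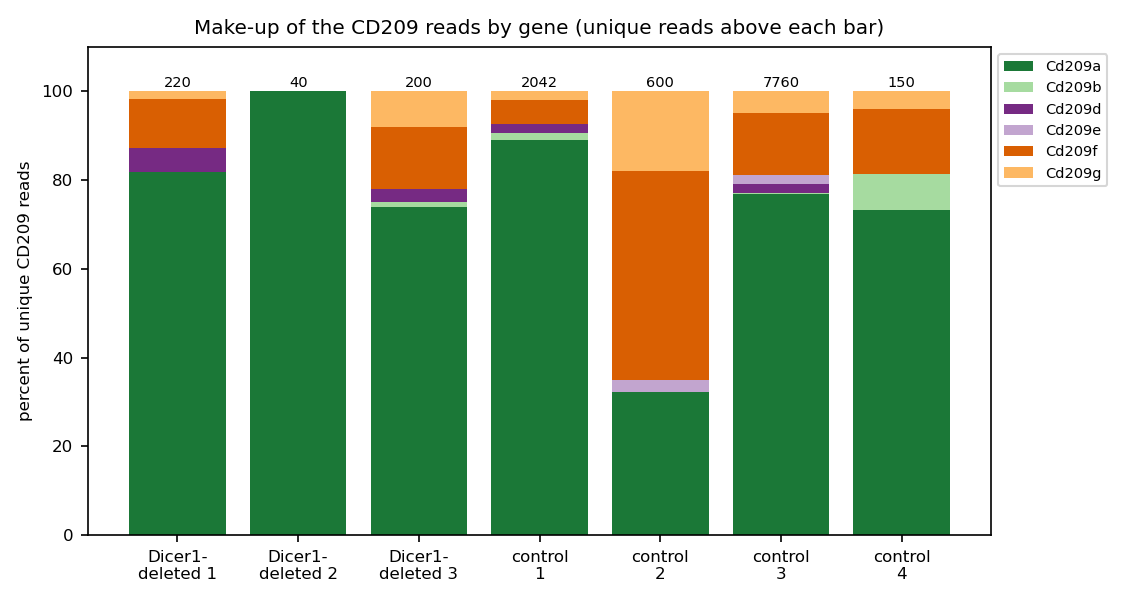
Stacked bars give the percent of unique CD209 reads that each of the 6 genes took, per library (3 Dicer1-deleted, then 4 control), with the number of unique CD209 reads above each bar. Cd209a (dark green) takes 73.3% or more in every library but control replicate 2, where Cd209f and Cd209g (orange shades) make up 65.0%.

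Clec10a and Mgl2 lie on chromosome 11, 18.6 kb apart and in the same direction (Mgl2 at chr11:70130329-70137550 and Clec10a at chr11:70156197-70170834, plus strand, GRCm38). Their longest annotated coding sequences were 91.1% identical. Exon 8 of each, again a coding exon of 152 bases, was identical in every base (chr11:70136441-70136592 for Mgl2 and chr11:70169926-70170077 for Clec10a). It is shown, with identical bases in capitals, because a read pair that falls inside it cannot be assigned to either gene, and further identical words lie outside it: 270 words of 50 bases were shared by the transcripts of the pair.
Mgl2 and Clec10a exon 8: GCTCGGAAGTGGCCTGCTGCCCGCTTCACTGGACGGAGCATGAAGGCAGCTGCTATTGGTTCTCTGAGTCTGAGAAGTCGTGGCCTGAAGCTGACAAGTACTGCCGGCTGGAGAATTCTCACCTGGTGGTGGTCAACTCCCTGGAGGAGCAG

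The galactose-type lectins were lower in the means of the Dicer1-deleted libraries, with much less spread among these libraries than among the controls. Clec10a had 19.0, 14.3 and 16.9 CPM in the Dicer1-deleted libraries, against 29.5, 62.8, 61.0 and 14.3 CPM in the control libraries. Mgl2 had 20.3, 17.6 and 20.1 CPM in the Dicer1-deleted libraries, against 71.0, 52.3, 175 and 9.89 CPM in the control libraries. For both, control replicates 1, 2 and 3 were above every Dicer1-deleted library and control replicate 4 was the lowest of all 7 libraries. Clec10a averaged 16.7 ± 2.34 CPM in Dicer1-deleted libraries, against 41.9 ± 23.9 CPM in controls (SD, n = 3 and 4), and its log2 fold change was -1.32 ± 0.48 (SE), with an unadjusted p of 0.0216 and an adjusted p of 0.463 in edgeR and of 0.175 in DESeq2. Mgl2 averaged 19.3 ± 1.49 CPM in Dicer1-deleted libraries, against 77.1 ± 70.3 CPM in controls, and its log2 fold change was -1.999 ± 0.74 (SE), with an unadjusted p of 0.0241 and an adjusted p of 0.486 in edgeR and of 0.108 in DESeq2.

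The balance of the pair varied as well. The ratio of Mgl2 to Clec10a CPM was 1.07, 1.23 and 1.19 in the Dicer1-deleted libraries, against 2.41, 0.833, 2.87 and 0.691 in the control libraries. It was close to the same in the Dicer1-deleted libraries, higher than that in control replicates 1 and 3, and lower in control replicates 2 and 4. Control replicates 1 and 3, the libraries with most Mgl2 relative to Clec10a, were also those with most Cd209a. The share of multiply placed reads was 3.83 to 5.02% for Clec10a and Mgl2 in all libraries, and adding these reads moved no call. This share was nearly equal for the pair in each library, as a split in proportion to unique reads would give. Adding such reads leaves the balance of the pair nearly as it was, and is no check on reads assigned to the wrong gene.

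The Dectins were by far the most abundant of the 10 genes. They lie on chromosome 6 (Clec4n at chr6:123229843-123247021 on the plus strand and Clec7a at chr6:129461591-129472779 on the minus strand), and at most 0.103% of their reads were multiply placed. GENCODE M21 gives Clec7a the gene type polymorphic pseudogene, a gene that is intact in some strains and not in others, and counts per gene do not show which form these mice carry. Clec4n had 1158, 2403 and 832 CPM in the Dicer1-deleted libraries, against 881, 1001, 509.6 and 916 CPM in the control libraries. The highest value was in Dicer1-deleted replicate 2, the library that stood apart, and Dicer1-deleted replicate 3 was below 3 of the 4 control libraries. The log2 fold change was 0.82 ± 0.41 (SE), with an unadjusted p of 0.0718 and an adjusted p of 0.701 in edgeR, and it was 0.26 without that library.

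Clec7a showed no shift beyond its spread. It had 787, 471 and 483 CPM in the Dicer1-deleted libraries, against 471, 234, 815 and 632 CPM in the control libraries. The means were 580 ± 179 CPM in Dicer1-deleted libraries, against 538 ± 246 CPM in control libraries, and the highest and the lowest value were both in control libraries. The log2 fold change was 0.11 ± 0.42 (SE), with an adjusted p of 0.996 in edgeR, and it turned negative without Dicer1-deleted replicate 1 (-0.17) or without control replicate 2 (-0.13). The ratio of Clec4n to Clec7a CPM was 1.47, 5.11 and 1.72 in the Dicer1-deleted libraries, against 1.87, 4.27, 0.626 and 1.45 in the control libraries. This ratio was highest in Dicer1-deleted replicate 2 and control replicate 2 and lowest in control replicate 3.

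**Figure D3:**
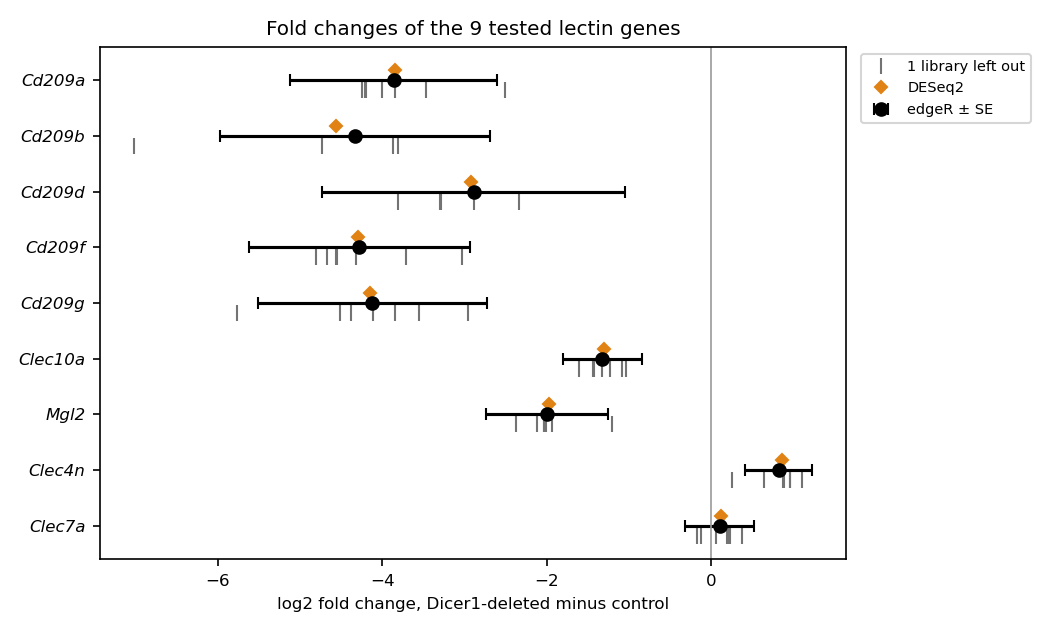
The log2 fold change (Dicer1-deleted minus control) of the 9 tested genes is plotted on the x axis. Black points with bars are edgeR values ± SE, diamonds are DESeq2 values and grey ticks are edgeR values with 1 library left out; all ticks of the CD209 and galactose-type genes lie below 0, whereas those of Clec7a fall on both sides.

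Compared per length, with the RPKM values that the authors deposited, the order of the genes was the same at the top in each group. Clec4n had a mean of 944 RPKM in Dicer1-deleted libraries, against 572 RPKM in control libraries, and Clec7a had 246 RPKM in Dicer1-deleted libraries, against 238 RPKM in controls. In the Dicer1-deleted libraries Clec10a (8.69 RPKM) and Mgl2 (8.58 RPKM) came next, and Cd209a followed at 1.76 RPKM. In the control libraries Mgl2 (36.2 RPKM), Cd209a (26.6 RPKM) and Clec10a (22.4 RPKM) came next, and their SDs of 34.6, 35.1 and 12.8 RPKM do not separate these 3. Cd209f was lower, at 0.240 RPKM in Dicer1-deleted libraries, against 4.79 RPKM in control libraries, and the 4 remaining CD209 genes were lower still. Cd209e was the lowest in Dicer1-deleted libraries, at 0 RPKM, against 0.46 RPKM in control libraries. Cd209b was the lowest in control libraries, at 0.165 RPKM, against 0.00667 RPKM in Dicer1-deleted libraries.

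The calls of DESeq2 turned on control replicate 4 in particular. Without that library, a choice made after seeing the data, Cd209a (adjusted p 2.42e-04), Mgl2 (2.68e-04), Cd209f (7.40e-04), Cd209g (0.00235) and Clec10a (0.00372) were all called lower by DESeq2. Control replicate 4 lay within or below the Dicer1-deleted range for all the genes called without it, so leaving it out favors a call. Without control replicate 2, DESeq2 called Cd209a (9.75e-04) and Cd209b (0.0470) in place of Cd209g. How many of all genes DESeq2 called in these fits was not counted, so no background share stands beside these calls. Control replicate 3 pulled the other way on the size of the fold. Without it the edgeR log2 fold change of Cd209a was -2.50 and that of Mgl2 was -1.20, and both stayed negative. With 1 library left out, Cd209f ranged from -4.80 to -3.03 and Cd209g from -5.77 to -2.96, each least negative without control replicate 3 and most negative without Dicer1-deleted replicate 3. In edgeR no gene of the 9 passed an adjusted p of 0.05 with any 1 library left out.

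The library titles carry the code L4 or L5, whose meaning is not stated. Dicer1-deleted replicate 1 and control replicates 1, 3 and 4 have L5, and the other 3 libraries have L4. On the log2(CPM + 1) scale, the mean of the Dicer1-deleted libraries was lower than that of the control libraries within both codes for Cd209a (a difference of -0.89 within L4 and -2.38 within L5), Cd209f (-2.54 and -1.64), Cd209g (-1.56 and -1.23), Mgl2 (-1.43 and -1.28) and Clec10a (-1.95 and -0.62). Each of these rests on a single library on one side, 1 control within L4 and 1 Dicer1-deleted library within L5, and has no test. Cd209b and Cd209d, by contrast, were slightly higher within L4 (0.03 and 0.09) and lower within L5 (-0.54 and -0.65). Both Dectins were higher within both codes, Clec4n by 0.50 and 0.64 and Clec7a by 1.02 and 0.335. With the code as a covariate in edgeR, the log2 fold change of Cd209a was -2.46 (unadjusted p 0.122), that of Mgl2 -1.79 (0.0688), that of Cd209b -2.62 (0.323) and that of Cd209d -0.69 (0.806). In the same fit Clec4n had 0.64 (unadjusted p 0.191) and Clec7a likewise 0.64 (0.101).

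Other C-type lectins of myeloid cells showed no common direction. Of 34 such genes 26 were tested, 12 with a negative and 14 with a positive log2 fold change, and their median was 0.07, against 0.03 over all tested genes. edgeR called none, 2 were lower and 4 higher at an unadjusted p under 0.05, and DESeq2 called 1. That gene was Cd207 (langerin), at 23.8, 13.3 and 16.5 CPM in the Dicer1-deleted libraries, against 79.4, 36.0, 28.1 and 109.6 CPM in the control libraries, without overlap (log2 fold change -1.82 ± 0.50 SE, adjusted p 0.271 in edgeR and 0.0179 in DESeq2). For Cd207, unlike the CD209 genes, control replicate 4 was the highest library. Clec12a, an inhibitory receptor, had a log2 fold change of -0.82 without overlap, and Clec9a, a receptor for dead cells on cross-presenting dendritic cells, had one of 2.00 at levels of 0.789 to 1.22 CPM in Dicer1-deleted libraries, against 0.0449 to 0.503 CPM in control libraries. Neither passed an adjusted p of 0.05 in edgeR or DESeq2. The mannose receptor Mrc1 (-0.25), Clec4e (Mincle, -0.21) and Clec4d (0.29) overlapped between the groups.

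Genes that act downstream of the Dectins were mostly close to 0. Of 29 signaling genes, all tested, 9 were negative and 20 positive, with a median log2 fold change of 0.14. edgeR called none, 1 was lower and 1 higher at an unadjusted p under 0.05, and DESeq2 called 1 lower. That gene was the kinase gene Src, at 0.913, 1.32 and 1.15 CPM in the Dicer1-deleted libraries, against 8.76, 2.87, 4.70 and 3.42 CPM in the control libraries (log2 fold change -2.13 ± 0.47 SE, adjusted p 0.165 in edgeR and 0.00162 in DESeq2). The kinase gene Syk had a log2 fold change of 0.04 and the adaptor gene Card9 one of -0.18, and the groups overlapped for both. Fcer1g, the adaptor chain that Clec4n needs, had 2003, 7017 and 1672 CPM in the Dicer1-deleted libraries, against 2099, 3021, 1231 and 1568 CPM in the control libraries. It shared its highest library, Dicer1-deleted replicate 2, with Clec4n.

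Among genes of the interleukin 4 response, the program in which Clec10a and Mgl2 are commonly placed, directions were mixed. Of 23 genes, all tested, 12 were negative and 11 positive, with a median log2 fold change of -0.04. edgeR called none, 6 were lower and 4 higher at an unadjusted p under 0.05, and DESeq2 called 4 lower and 1 higher. Retnla, which encodes the secreted protein RELM-alpha, had 1.79, 2.69 and 2.13 CPM in the Dicer1-deleted libraries, against 17.3, 14.3, 42.3 and 3.78 CPM in the control libraries (log2 fold change -3.14, adjusted p 0.181 in edgeR and 2.41e-04 in DESeq2). Its control replicates 3 and 4 were the highest and the lowest control, as for Mgl2 and Cd209a. The chemokine gene Ccl17 was at 0.0415, 0 and 0.0427 CPM in the Dicer1-deleted libraries, against 1.84, 0.180, 4.81 and 0.365 CPM in the control libraries (adjusted p 0.223 in edgeR and 5.10e-04 in DESeq2). Like Cd209b, Ccl17 passed the main filter only through control replicates 1, 3 and 4. A lower value was thus the only outcome open to it, and its DESeq2 call, 1 of the 4 lower, is no separate result. The transcription factor gene Klf4 had a log2 fold change of -1.07 without overlap (adjusted p 0.214 in edgeR and 0.00298 in DESeq2). The gene called higher by DESeq2 was Pparg, a transcription factor gene named after its values were seen, at 16.9, 16.2 and 11.6 CPM in the Dicer1-deleted libraries, against 6.46, 5.34, 4.63 and 9.07 CPM in the control libraries (log2 fold change 1.23, adjusted p 0.233 in edgeR and 0.0184 in DESeq2). In all, 4 genes of the list were lower and 3 higher without overlap. Arg1 (-0.85), Irf4 (-1.75), the receptor gene Il4ra (0.38) and its transducer gene Stat6 (0.01) passed an adjusted p of 0.05 in neither tool.

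Markers of other cells and of macrophage states also differed between the groups, and their part in the lectin results was not tested. edgeR called no gene of these lists. Of 12 markers of resident-like macrophages, all tested, 10 were negative, with a median log2 fold change of -1.12. At an unadjusted p under 0.05 in edgeR 5 were lower and 0 higher, and DESeq2 called 5 lower. Summed, they stood at 1001, 449.9 and 1192 CPM in the Dicer1-deleted libraries, against 1101, 2973, 2882 and 772 CPM in the control libraries, with control replicate 4 again the lowest control. Among them Vsig4, a complement receptor, had 0.374, 0 and 0.128 CPM in the Dicer1-deleted libraries, against 5.995, 12.3, 5.54 and 3.56 CPM in the control libraries, and Lyve1, a hyaluronan receptor, had 5.98, 1.37 and 1.88 CPM in the Dicer1-deleted libraries, against 26.7, 89.8, 102 and 9.53 CPM in the control libraries. Both were without overlap, and DESeq2 called both lower (adjusted p 3.66e-09 and 7.70e-06).

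Dendritic cell markers, by contrast, had more members on the positive side. Of 16, 15 were tested, 5 negative and 10 positive, with a median log2 fold change of 0.35. At an unadjusted p under 0.05 in edgeR 1 was lower and 4 were higher, and DESeq2 called 1 lower and 3 higher (Xcr1, Irf8 and Batf3, which mark or drive cross-presenting dendritic cells). The lower one was Ccr7, a chemokine receptor of migrating dendritic cells, with a log2 fold change of -3.25 without overlap (adjusted p 0.345 in edgeR and 0.00999 in DESeq2). Summed, they stood at 106 to 143 CPM in Dicer1-deleted libraries, against 55.6 to 100.8 CPM in control libraries, with Irf8 the main part of the difference. Without Irf8, as computed after seeing the data, the sums overlapped (34.1 to 50.1 CPM in Dicer1-deleted against 18.4 to 75.9 CPM in control libraries). Of the defining markers, Flt3 was at 0 in Dicer1-deleted replicates 1 and 2 and in control replicate 2. Zbtb46 was at 0.457 to 1.75 CPM in Dicer1-deleted libraries, against 1.08 to 3.90 CPM in control libraries, highest in control replicate 3, where Cd209a was also highest. Summed markers were also higher in Dicer1-deleted than in control libraries for T and NK cells (12.2 to 25.1 CPM in Dicer1-deleted against 8.09 to 10.8 CPM in control libraries; 12 of 14 tested, 10 positive) and for B cells (144 to 190 CPM in Dicer1-deleted against 41.4 to 82.1 CPM in control libraries; 5 of 8 tested, 4 positive). For fibroblast, endothelial and epithelial markers (10 of 11 tested, 7 positive) the sum was 49.4 to 86.7 CPM in Dicer1-deleted against 18.6 to 30.5 CPM in control libraries, and Pecam1, an endothelial marker, made most of this difference, with 69.6, 39.8 and 36.3 CPM in the Dicer1-deleted libraries, against 6.54, 3.23, 11.1 and 11.9 CPM in the control libraries. Without Pecam1, as computed after seeing the data, the sums overlapped (13.1 to 17.1 CPM in Dicer1-deleted against 8.93 to 18.6 CPM in control libraries). Macrophage markers (12 of 12 tested, median log2 fold change 0.13), monocyte markers (10 of 10, median 0.09) and neutrophil markers (7 of 12, 254 to 315 CPM in Dicer1-deleted libraries, against 177 to 627 CPM in control libraries, Elane at 0 in all libraries but control replicate 2) overlapped in their sums. Single genes of these lists differed all the same. Treml4, a marker of patrolling monocytes, had 214, 261 and 120.1 CPM in the Dicer1-deleted libraries, against 17.9, 37.6, 10.7 and 17.8 CPM in the control libraries (log2 fold change 3.24, adjusted p 0.105 in edgeR and 7.50e-09 in DESeq2). Lyz2, the gene of the lysozyme M locus that holds the Cre in both groups, had 53.0, 67.2 and 50.7 CPM in the Dicer1-deleted libraries, against 134, 212, 107 and 103 CPM in the control libraries (-1.29, adjusted p 0.235 in edgeR and 0.0144 in DESeq2). Mmp8, a neutrophil collagenase, had a log2 fold change of 1.34 without overlap (adjusted p 0.196 in edgeR and 0.00582 in DESeq2).

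**Figure D4:**
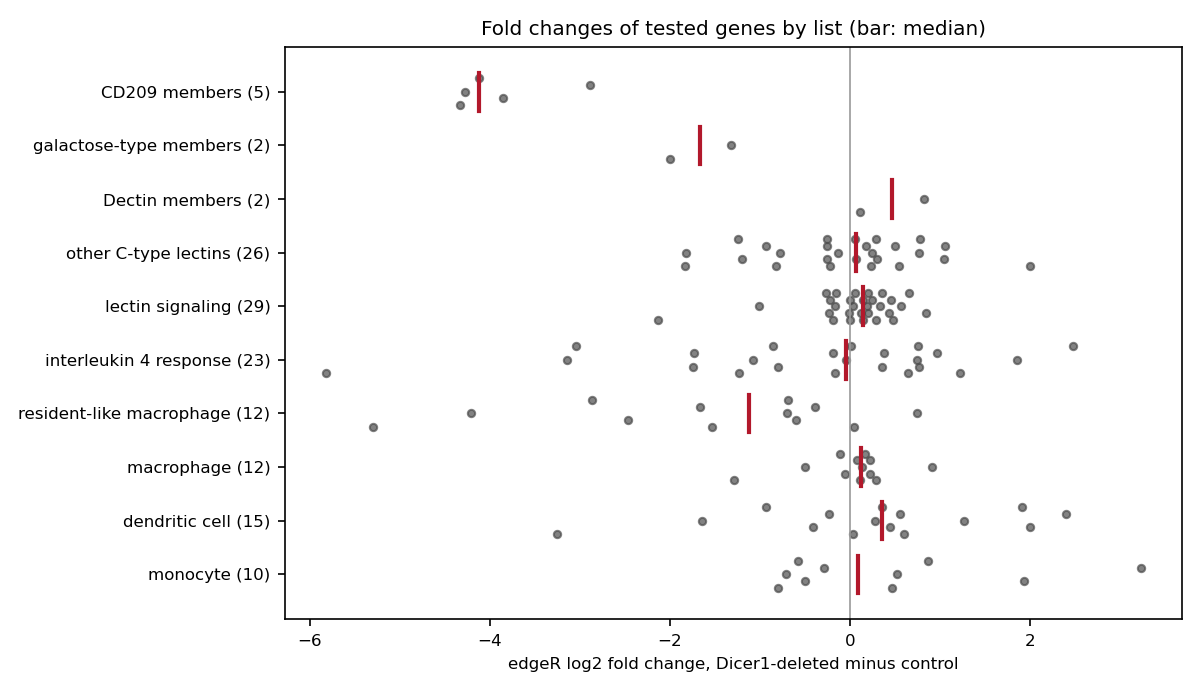
Each grey point is a tested gene, placed by its edgeR log2 fold change (Dicer1-deleted minus control) and grouped by list, with the number of tested genes in parentheses and the list median as a red bar. The 5 CD209 genes lie between -4.33 and -2.89, and the medians of the other C-type lectins (0.07) and of the signaling genes (0.14) lie near 0.

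Patterns over the 7 libraries did not simply follow the families. Likeness was measured as the root mean square difference of centred log2(CPM + 1) values, where 0 is the same pattern. Cd209g was nearest to Clec10a (0.391) and Cd209f to Cd209g (0.464), whereas Cd209a was nearest to Mgl2 (0.959) and farthest from Clec4n (2.45). Clec10a was nearer to Cd209g than to Mgl2 (0.686). The rare Cd209b was nearest to Cd209d (0.539), but nearer to Clec7a (0.559) than to Cd209a (1.74). Cd209d and Cd209e, also rare, were nearest to each other (0.391). This measure favors pairs of genes with few counts, whose values hardly vary on this scale.

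Among 8799 other genes with a mean of at least 5 CPM, those nearest to Cd209a were Ccl22 (0.704), Coq8a (0.839), Kbtbd11 (0.847), Dcstamp (0.855) and Ccr7 (0.863), where the median over all candidates was 1.96. Ccl22, a chemokine gene, had 2.82, 1.02 and 0.896 CPM in the Dicer1-deleted libraries, against 15.8, 2.92, 30.1 and 3.42 CPM in the control libraries. Like Cd209a, all 5 were highest in control replicates 1 and 3, with control replicates 2 and 4 far below these. Those nearest to Clec10a were Hmgn3 (0.297), Qpct (0.325), Stard8 (0.397), Serpinb1a (0.404) and Dpysl3 (0.435), where the median was 0.920. Qpct, which encodes glutaminyl-peptide cyclotransferase, had 22.8, 22.4 and 34.2 CPM in the Dicer1-deleted libraries, against 50.1, 75.1, 109 and 33.8 CPM in the control libraries. The Clec10a pattern thus had control replicates 2 and 3 at the top, and the Cd209a pattern control replicates 1 and 3. The genes were chosen for likeness in these same libraries, so their fold changes are no separate evidence.

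**Figure D5:**
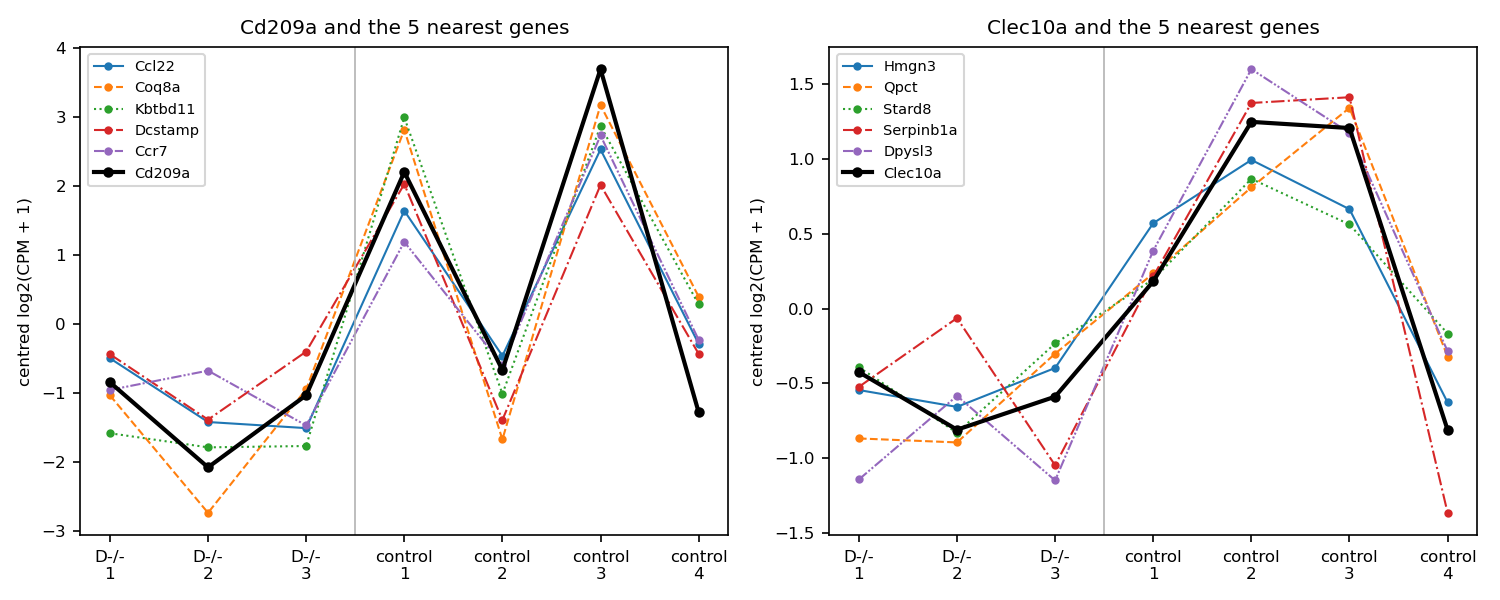
Lines join, only to guide the eye, the centred log2(CPM + 1) values of Cd209a (left, black) and Clec10a (right, black) and of the 5 genes nearest to each, over the 3 Dicer1-deleted libraries (D-/-) and the 4 control libraries. The left set peaks in control replicates 1 and 3 and the right set in control replicates 2 and 3, and both drop in control replicate 4.

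RefSeq promoter windows were at hand for 8 of the 10 genes, all but Clec10a and Clec4n. A STAT6-type motif, TTCNNNNGAA, searched on both strands in the 250 bases before the start, was present in those of Cd209e and Clec7a and in 5.87% of all 27025 promoters. A PU.1-type motif, GAGGAA, searched likewise, was present in those of Cd209d, Clec7a and Mgl2 and in 23.1% of all promoters. Neither was found in the windows of Cd209a, Cd209f or Cd209g, which says only that these letters are absent there.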

How the data were processed

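RNA was sequenced from 7 libraries. Per the labels' protocols, 2 ng of total RNA (integrity number above 7) per library was turned into cDNA with the SMARTer ultra low kit, amplified and made into libraries with Nextera XT, which keeps no strand, and read pairs of 50 bases per mate were sequenced. The submitters' processing notes name Bowtie2. The build, the annotation and the tool that counted reads are not given in the sources here. Per the file headers, the authors deposited counts of uniquely placed reads, expected counts with fractional shares of multiply placed reads, and RPKM values per gene. All unique counts were even, so both mates were counted.

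Unlisted genes were set to 0. IDs were matched to GENCODE M21 (GRCm38), 21798 of 24084 with a symbol. Counts were compared in edgeR 4.0.16 (R 4.3.3) with filterByExpr, TMM scaling, the quasi-likelihood test, no covariate and Benjamini-Hochberg adjustment over 16226 genes; SE is the fold change divided by the square root of F. The biological coefficient of variation was 45.1%, which limits precision more than depth (43 to 51.2 M unique reads). DESeq2 1.42.0 and limma 3.58.1 (voom), other scalings, filters and count columns, the L code as covariate and leaving out each library were alternatives; DESeq2 with each library left out, and list sums without 1 gene, were added after seeing the data. Expected counts were rounded. The edgeR and DESeq2 scripts were tested on simulated data with 200 changed genes.

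The 10 genes and the gene lists were chosen with earlier results of these data known. Named besides them were genes among the 3 smallest edgeR p-values of each list, a set of classical genes, and the 5 genes nearest in pattern to Cd209a and to Clec10a; not every gene that meets this rule is named.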

Additional observations from a re-analysis of the deposited data

Results flagged for a closer look

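In the control group, 3 of 54 gene levels examined for a sample far from the others had one, where chance gives about 1 in 20, and control replicate 3 was that sample each time. Cd209e stood at 2.84 CPM in control replicate 3, and the next control library was at 0.359 CPM. Zbtb46, a dendritic cell marker, stood at 3.90 CPM there, with the next control at 1.17 CPM. Csf1r stood at 809 CPM, with the next control at 581 CPM. Groups of 3 libraries were not examined.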

How the results depend on the processing

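The genes called over all genes numbered 4 in edgeR, 405 in DESeq2, 2 in limma-voom, 42 without a filter, 1 with at least 10 CPM in 3 libraries and 0 with the L code as covariate (1088 at an unadjusted p under 0.05), and 0 to 3 with 1 library left out. Of the lectin genes, 7 were lower in Dicer1-deleted libraries; 2 were with the 10 CPM filter, which leaves Clec10a and Mgl2 of these 7, 8 without a filter, 5 for read pairs and 5 to 9 with 1 library left out. These counts follow how many of the 10 passed the filter: 4, 10, 7 and 7 to 10. The summed CD209 level ranged from -4.33 to -2.60 (log2) with 1 library left out and was -2.35 and -3.78 within L4 and L5. Of 132 alternative values for single lectin genes in the planned settings, 129 kept direction and call, 1 gained a call (Cd209g in DESeq2) and 2 reversed. Since edgeR called no lectin gene, keeping the call meant staying uncalled. The DESeq2 fits with 1 library left out, added later, are not among these values and gained further calls. They called Cd209a, Mgl2, Cd209f, Cd209g and Clec10a without control replicate 4, and Cd209a and Cd209b without control replicate 2. The share of all genes called in those fits was not counted.

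The reversals were of genes that no tool called, and their cause was not tested. With 1 library left out, the log2 fold change of Clec7a ranged from -0.17 to 0.38 in edgeR and from -0.14 to 0.39 in DESeq2, negative without Dicer1-deleted replicate 1 or control replicate 2. Reversed in the same way were Syk (-0.054 to 0.20), Stat6 (-0.14 to 0.11), Adgre1 (-0.32 to 0.62), Csf1r (-0.063 to 0.25), Clec4d (-0.39 to 0.54), Mrc1 (-0.44 to 0.039), Clec4e (-0.47 to 0.22), Fcer1g (-0.12 to 1.19) and Card9 (-0.51 to 0.24). Without TMM factors Syk (-0.019) and Stat6 (-0.036) reversed, in limma-voom Clec4e (0.016) and Adgre1 (-0.0012), and with the L code Clec4d (-0.053) and Clec4e (0.38). No scaling moved the median of all genes by over 0.1. No paired analysis was possible because the groups share no replicate numbers in the labels. With unique reads from 0 to 372 for Cd209g, counting error and library spread limit the rare genes.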
